A study of Mus musculus with 23 samples.

Results

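The 9 genes described here encode the 3 TGF-beta ligands (Tgfb1, Tgfb2, Tgfb3), their 3 receptors (Tgfbr1, Tgfbr2, Tgfbr3), and 3 SMAD proteins (Smad2, Smad3, Smad7). They were picked by gene symbol, as a named pathway, from 67228 entries of the count table. All 9 were among the 14364 genes tested, which reached 10 counts in 5 or more mice. RNA-Seq had been performed on marrow-depleted femur and tibia of 23 female C57BL6/N mice at 11 weeks of age, with 1 library per mouse. Nondiabetic mice (5 WT Control and 6 KO Control) had been given saline only. Diabetic mice (6 WT T1D and 6 KO T1D) had been fasted and given 100 mg/kg of streptozotocin, a toxin of insulin-producing beta cells, on each of 2 days, with a further dose where blood glucose was still too low. Their diabetes had lasted 3 weeks. KO stands for mice labelled Sarm1-KO, a global knockout that affects every cell type, so a difference between genotypes cannot be assigned to bone cells. The study's methods describe WT mice both as littermates and as purchased animals, and the labels do not say which mouse was which.

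TGF-beta is stored in bone matrix as a latent complex and is released when osteoclasts resorb bone. Active ligand binds the type II receptor, which recruits and phosphorylates the type I receptor, and this in turn phosphorylates SMAD2 and SMAD3, which enter the nucleus with SMAD4. SMAD7 is induced by the pathway and inhibits it. In bone, the pathway is known for coupling resorption to formation, and it acts on both osteoblast and osteoclast lineages.

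Depth was similar in all libraries, with 16938101 to 20135592 counts per mouse. The marker genes of bone cells were present, as were those of other tissue: the summed level of 6 erythroid markers ranged from 59806 to 178493 CPM (counts scaled to an equal library size), and that of 5 skeletal muscle markers from 138 to 6446 CPM. The WT T1D mice A3905 and A3906 stood apart from the other 21. Their 6 osteoblast markers summed to 3953 and 3034 CPM against 35328 to 77594 CPM in the others, and their 5 osteoclast markers to 2012 and 2189 CPM against 639.6 to 1546 CPM. Their erythroid markers, at 178493 and 176074 CPM, were also the highest. Results are therefore given with and without both mice. The range of Sarm1 RNA in KO libraries, at 0.268 to 1.57 CPM without and 0.811 to 1.46 CPM with T1D, overlapped that in WT libraries, at 0.845 to 1.76 CPM without and 0.340 to 1.21 CPM with T1D. The median of Sarm1 RNA was 0.739 CPM in KO Control and 0.931 CPM in WT Control mice. With T1D it was higher in KO, at 1.24 CPM against 0.671 CPM in WT. The paper reported reduced Sarm1 in KO bone by quantitative PCR. Genotype was taken from the labels. The IDs of 1 WT Control and 3 WT T1D mice began with A17, and all others with A36 to A39. Once A3905 and A3906 are left out, every WT T1D mouse but A3909 has an A17 ID. Values without the pair that involve WT T1D mice therefore partly set ID series against group.

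The promoters of the ligands with the highest and the lowest level of the 9 genes, Tgfb1 and Tgfb2, are shown so that their composition can be compared. RefSeq sequences of GRCm38.p6 covered 250 bases before to 50 after the transcription start and were on hand for 5 of the 9 genes, in 6 entries. Capitals mark CAGAC (a SMAD-binding element), TGANTCA (an AP-1 site), TATAAA (the core promoter box), and GGGCGG (a GC box), searched on both strands. The Tgfb2 window surrounds a start inside the annotated span of that gene and not its outer end. TATAAA was added to the search after the sequences had been read.
Tgfb1, chr7:25686752-25687051, plus strand: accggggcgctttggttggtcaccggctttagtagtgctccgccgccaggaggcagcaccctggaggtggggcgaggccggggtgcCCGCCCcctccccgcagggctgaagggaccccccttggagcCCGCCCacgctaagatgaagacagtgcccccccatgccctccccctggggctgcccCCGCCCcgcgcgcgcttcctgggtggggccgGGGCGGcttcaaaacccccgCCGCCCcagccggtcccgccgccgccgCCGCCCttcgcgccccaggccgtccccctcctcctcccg
Tgfb2, chr1:186705940-186706239, minus strand: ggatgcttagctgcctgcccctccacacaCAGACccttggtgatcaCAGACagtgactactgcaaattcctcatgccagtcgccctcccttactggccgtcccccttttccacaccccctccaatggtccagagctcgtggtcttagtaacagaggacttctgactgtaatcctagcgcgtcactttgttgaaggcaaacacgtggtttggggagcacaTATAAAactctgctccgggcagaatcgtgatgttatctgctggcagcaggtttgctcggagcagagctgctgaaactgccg

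The Tgfb1 window was 77.0% G or C and held 6 matches to GGGCGG, with no match to the other 3 motifs. The Tgfb2 window was 54.3% G or C, near the median of 52.7% over all promoters, and held 2 matches to CAGAC and 1 to TATAAA. Of 32851 promoters of this length, 49.6% held CAGAC, 7.8% TGANTCA, 13.6% TATAAA, and 35.7% GGGCGG. Among the other entries, the first Tgfbr1 entry and the Smad3 entry each held 2 matches to GGGCGG, the second Tgfbr1 entry and the Tgfbr2 entry each held 1 match to CAGAC, and TGANTCA was found in none of the 6. A match is a description of the letters and not evidence of binding.

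Levels were compared between genes in TPM, which accounts for length. Tgfb1, the main ligand of bone matrix, had the highest mean level at 211 ± 39.6 TPM (SD, n = 23 mice), followed by Tgfbr2, the type II receptor that binds ligand, at 37.1 ± 6.42 TPM. The ranges of these 2 genes did not overlap each other or that of the third, Smad3, which carries the signal to the nucleus, at 15.3 ± 3.05 TPM. The ranges of all later neighbours in the order overlapped.

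Tgfb3 followed at 12.7 ± 4.73 TPM, then the type I receptor Tgfbr1 at 11.9 ± 2.45 TPM and the co-receptor Tgfbr3 at 6.36 ± 0.999 TPM. The remaining levels were 5.95 ± 0.835 TPM for Smad2, 4.50 ± 1.01 TPM for the inhibitor Smad7, and 2.67 ± 0.889 TPM for Tgfb2. Smad3 exceeded Tgfb3 in 17 of 23 mice, and Tgfbr3 exceeded Smad2 in 16 of 23. Tgfb1 made up most ligand RNA in every group, with 92.8% ± 2.15 (SD, n = 5) of summed ligand TPM in WT Control mice. The share was 94.0% ± 2.37 (SD, n = 6) for WT T1D, 92.5% ± 1.98 (SD, n = 6) for KO Control, and 93.8% ± 1.29 (SD, n = 6) for KO T1D. As a coefficient of variation of CPM over the 23 mice, Tgfb3 varied most (32.9%) and Smad2 least (7.42%).

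**Figure D1:**
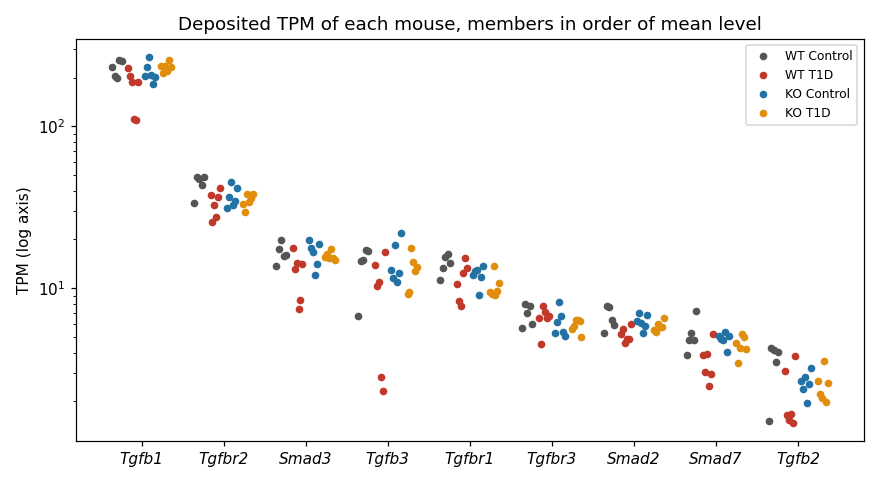
Deposited TPM of the 9 genes on a log axis, with 1 point per mouse colored by group and genes ordered by mean level. Tgfb1 lies above all others in each mouse, and the 2 lowest Tgfb3 points are the WT T1D mice A3905 and A3906.

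The first question was whether T1D altered these genes in WT bone. None of the 9 passed the threshold, an edgeR adjusted p under 0.05, at which 2.33% of all genes were called. All but Tgfbr3, 8 of 9, had a lower fitted level in WT T1D, where 51.9% of all genes did. Of these, Tgfbr1 was near 0, with a log2 fold-change of -0.0057. Without A3905 and A3906, Tgfb1 (0.0082), Tgfb3 (0.069), and Smad3 (0.039) also lay above 0, and the others kept their direction. With all mice, none of the 9 had an unadjusted p under 0.05 in edgeR, which 22.2% of all genes had. DESeq2 also called 0 of the 9, and 6.98% of all genes. In bulk tissue, fewer cells of a type and less RNA per cell cannot be told apart.

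Among the ligands, Tgfb1 (chr7:25687002-25705077, GRCm38.p6) was measured at 268, 283, 356, 362, and 376 CPM in the 5 WT Control mice. The 6 WT T1D mice had 215, 228, 281, 333, 347, and 365 CPM. The 2 lowest values were those of A3906 and A3905, and the other 4 mice lay within the Control range. The log2 fold-change was -0.16 (SE 0.129, 95% interval -0.42 to 0.11, edgeR adjusted p = 0.493), and without both mice it was 0.0082.

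Tgfb2 (chr1:186622787-186709697), a ligand known for roles in skeletal development, was low in bone. It reached 5.86, 12.5, 13.6, 13.8, and 13.8 CPM in WT Control and 6.60, 6.91, 6.94, 8.04, 12.1, and 13.9 CPM in WT T1D. In WT T1D, 5 of 6 mice were below 4 of the 5 Control mice, but the Control mouse A1757 was the lowest of all, so the groups overlapped. The log2 fold-change was -0.39 (SE 0.219, 95% interval -0.84 to 0.06, edgeR adjusted p = 0.303), and it was -0.27 without A3905 and A3906.

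Tgfb3 (chr12:86056743-86079041), the third ligand, showed the widest spread. WT Control mice had 16.6, 31.9, 32.0, 37.8, and 39.3 CPM, and WT T1D mice had 7.17, 9.11, 27.5, 30.3, 34.8, and 39.9 CPM. The 2 lowest values of all 23 mice were again those of A3906 and A3905. The log2 fold-change was -0.34 (SE 0.327, 95% interval -1.02 to 0.33, edgeR adjusted p = 0.562) with all mice and 0.069 without this pair, so its direction rested on these 2 mice. Both had the lowest osteoblast marker sums. They also had the lowest chondrocyte, B cell, and platelet and megakaryocyte marker sums and the highest adipocyte sums. The part of any of these cells in the Tgfb3 difference was not tested.

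Among the receptors, Tgfbr1 (chr4:47353222-47414926) was measured at 47.8, 49.2, 54.8, 56.8, and 63.9 CPM in WT Control and at 37.2, 38.0, 45.5, 54.4, 68.6, and 82.1 CPM in WT T1D. The WT T1D values fell on both sides of the Control range, with 3 mice below it and 2, A3905 and A3906, above it. The mean log2 fold-change was accordingly near 0, at -0.0057 (SE 0.158, 95% interval -0.33 to 0.32, edgeR adjusted p = 0.988). Without both mice it was -0.32 (edgeR adjusted p = 0.346), which did not pass the threshold. The 3 mice below the Control range, A1758, A1787, and A1764, all have A17 IDs. Among A36 to A39 mice, a subset that keeps A3905 and A3906, the value was 0.30 (edgeR adjusted p = 0.136). T1D and ID series cannot be fully told apart in the value without both mice.

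Tgfbr2 (chr9:116087695-116175363) ranged from 116 to 153 CPM in WT Control (median 142) and from 96.5 to 161 CPM in WT T1D (median 131), with a log2 fold-change of -0.10 (SE 0.104, 95% interval -0.32 to 0.11, edgeR adjusted p = 0.597) and -0.18 without A3905 and A3906. Tgfbr3 (chr5:107106567-107289629), which presents ligand to the signaling receptors, was the 1 gene with a higher fitted level. It ranged from 24.3 to 32.4 CPM in WT Control (median 26.9) and from 21.8 to 41.8 CPM in WT T1D (median 33.4), where 3 mice exceeded every Control mouse and 1 was below them all. Its log2 fold-change was 0.24 (SE 0.153, 95% interval -0.08 to 0.55, edgeR adjusted p = 0.366), and it was 0.090 without A3905 and A3906.

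**Figure D2:**
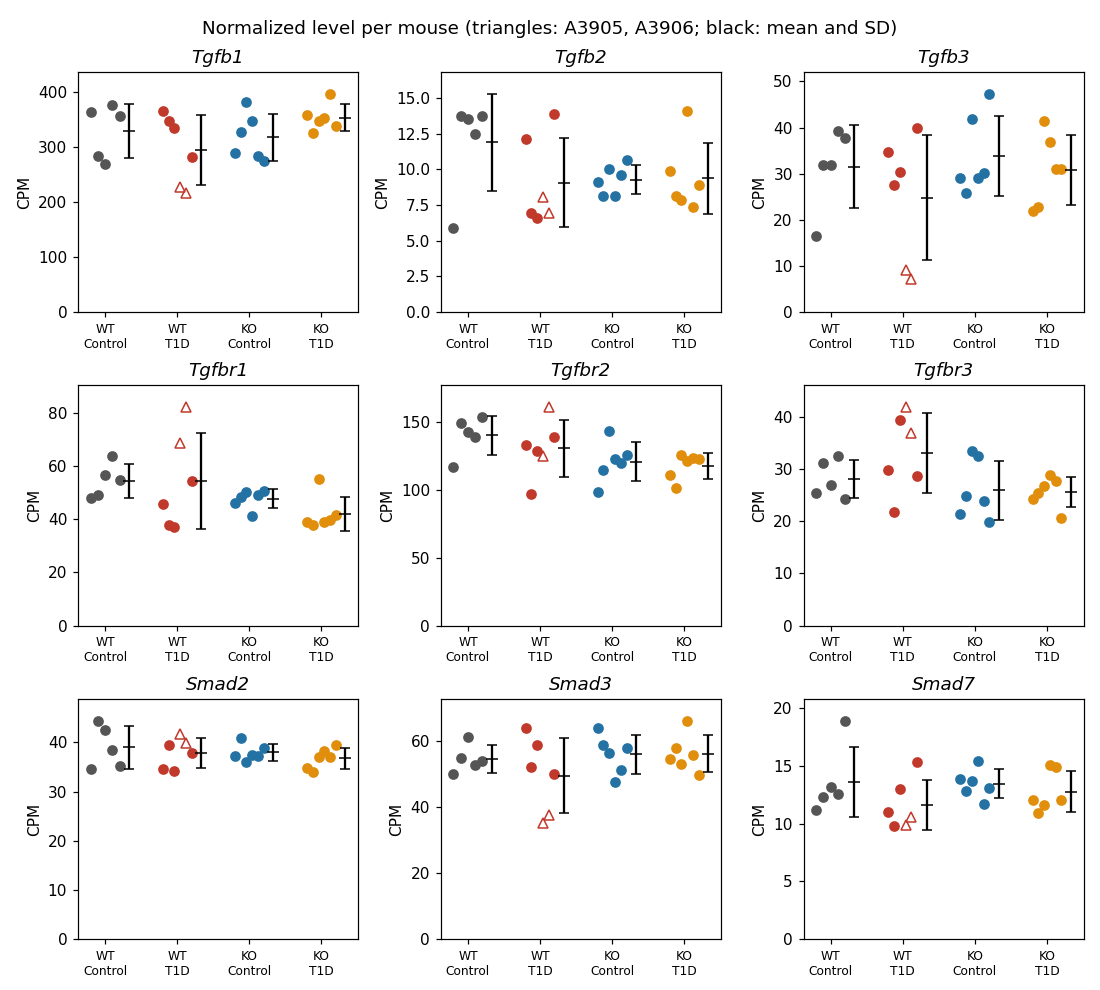
TMM-normalized CPM of each gene in each mouse by group, with 1 point per mouse, open triangles for A3905 and A3906, and the mean and SD in black. The WT T1D groups of Tgfb3, Tgfbr1, and Smad3 are split by the triangles, and all 9 genes overlap between groups.

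Among the SMADs, Smad3 (chr9:63646766-63757994) was measured at 49.9, 52.7, 54.1, 55.0, and 61.3 CPM in WT Control and at 35.3, 37.5, 49.9, 52.0, 58.7, and 63.9 CPM in WT T1D. The lowest 2 mice of all 23 were A3905 and A3906. The log2 fold-change was -0.14 (SE 0.121, 95% interval -0.39 to 0.11, edgeR adjusted p = 0.523) and 0.039 without both. Among A36 to A39 mice alone, it was -0.43 (edgeR adjusted p = 0.0229), the 1 call among the 9 genes in that subset, where 15.5% of all genes were called. That subset has 3 WT T1D mice, of which 2 are A3905 and A3906.

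Smad2 and Smad7 lie on chromosome 18 of GRCm38.p6, at 76241090-76311748 and 75367365-75395935. Smad2, which carries the signal alongside Smad3, ranged from 34.5 to 44.4 CPM in WT Control and from 34.1 to 41.7 CPM in WT T1D, with a log2 fold-change of -0.043 (SE 0.0720, 95% interval -0.19 to 0.11, edgeR adjusted p = 0.774) and -0.099 without the pair. The interval with all mice was the narrowest of the 9. Smad7 ranged from 11.2 to 18.9 CPM in WT Control (median 12.6) and from 9.74 to 15.3 CPM in WT T1D (median 10.8), where 4 of 6 mice were below every Control mouse. Its log2 fold-change was -0.23 (SE 0.136, 95% interval -0.51 to 0.05, edgeR adjusted p = 0.318) and -0.16 without the pair.

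The deposited TPM values gave another picture of the same comparison. With limma on log2 (TPM + 1), Tgfb1, Tgfb2, Tgfbr2, Smad2, Smad3, and Smad7 were called lower in WT T1D, but 36% of all genes were called and the median gene was shifted by -0.24 on that scale. Tgfb1 had a log2 difference of -0.46 and Smad2 of -0.29, so their distance from the median gene was less than these values.

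The same question was then asked in KO mice. None of the 9 genes passed the threshold there, and 0% of all genes were called. edgeR gave 0 of the 9 an unadjusted p under 0.05, against 3.15% of all genes, and DESeq2 called 0. The log2 fold-changes ran from -0.18 for Tgfbr1 (95% interval -0.49 to 0.13) to 0.15 for Tgfb1 (95% interval -0.10 to 0.41), with 6 of 9 below 0. Tgfb1 reached 274 to 382 CPM in KO Control (median 308) and 324 to 396 CPM in KO T1D (median 349). The lowest 3 KO Control mice lay below all KO T1D mice, and the ranges overlapped. Tgfbr1 reached 41.1 to 50.8 CPM in KO Control (median 48.8) and 38.0 to 55.0 CPM in KO T1D (median 39.4), where 4 of 6 mice were below every KO Control mouse and A3683 was above them all. Tgfb3, at 25.7 to 47.3 CPM in KO Control and 21.9 to 41.3 CPM in KO T1D, had no mouse as low as A3905 and A3906.

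The other 6 genes also overlapped between KO Control and KO T1D. Tgfb2 reached 8.14 to 10.6 CPM (median 9.37) in KO Control and 7.37 to 14.1 CPM (median 8.51) in KO T1D, with a log2 fold-change of 0.015. Tgfbr2 reached 98.5 to 143 CPM (median 121) and 101 to 125 CPM (median 122), and Tgfbr3 reached 19.8 to 33.4 CPM (median 24.3) and 20.6 to 28.9 CPM (median 26.0). For the SMADs, Smad2 reached 36.1 to 40.9 CPM and 33.9 to 39.4 CPM, Smad3 reached 47.6 to 64.0 CPM and 49.7 to 66.2 CPM, and Smad7 reached 11.7 to 15.4 CPM and 10.9 to 15.03 CPM. The log2 fold-changes of these 5 receptors and SMADs lay between -0.073 (Smad7) and 0.0061 (Smad3).

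Ratios within a library do not depend on its scaling and are given as a description. The ratio of Tgfbr2 to Tgfbr1 TPM was 3.14 ± 0.395 (SD, n = 5) in WT Control mice and 3.08 ± 0.734 (SD, n = 6) in WT T1D mice, where A3905 and A3906 had 2.21 and 2.37. The ratio of Smad3 to Smad2 TPM was 2.52 ± 0.170 (SD, n = 5) in WT Control mice and 2.40 ± 0.730 (SD, n = 6) in WT T1D mice, where the same 2 mice had 1.52 and 1.74. In KO Control mice these ratios were 3.08 ± 0.380 and 2.64 ± 0.299 (SD, n = 6), and in KO T1D mice they were 3.42 ± 0.376 and 2.73 ± 0.290 (SD, n = 6).

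The difference between the genotypes in their change with T1D was tested as the interaction term. None of the 9 genes and 0% of all genes were called by edgeR, 0 of the 9 had an unadjusted p under 0.05 (10.2% of all genes did), and DESeq2 called 0. The log2 interaction was 0.31 for Tgfb1 (95% interval -0.06 to 0.68, edgeR adjusted p = 0.535), 0.40 for Tgfb2 (95% interval -0.23 to 1.03), and -0.26 for Tgfbr3 (95% interval -0.70 to 0.18). These were 0.14, 0.28, and -0.12 when A3905 and A3906 were left out. For Tgfb3, the interaction was 0.21 with all mice and -0.21 without this pair. These intervals include differences of considerable size, and the genotypes were not shown to respond alike.

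Genotypes were also compared within each condition, and these comparisons share their mice with those above. In Control mice, 0 of the 9 genes were called, where 0.0278% of all genes were, and edgeR gave none an unadjusted p under 0.05. DESeq2 called 0 and gave 1 such p. The widest log2 difference was -0.36 for Tgfb2 (95% interval -0.81 to 0.10), where 4 of 5 WT Control mice lay above every KO Control mouse.

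In T1D mice, 0 of 9 were called by edgeR or DESeq2, where edgeR called 0.0905% and DESeq2 1.66% of all genes. edgeR gave 3 of the 9 an unadjusted p under 0.05, and 17.1% of all genes. KO T1D mice had a higher fitted level of Tgfb1 (log2 fold-change 0.26, 95% interval 0.0033 to 0.51, edgeR adjusted p = 0.288). They had lower fitted levels of Tgfbr1 (-0.37, 95% interval -0.68 to -0.06, edgeR adjusted p = 0.230) and Tgfbr3 (-0.37, 95% interval -0.67 to -0.07, edgeR adjusted p = 0.216). Without A3905 and A3906, these were 0.087, -0.059, and -0.23. Among A36 to A39 mice, where those 2 make up most of the WT T1D group, edgeR called Tgfb1 (0.54, adjusted p = 0.0179), Tgfbr1 (-0.71, adjusted p = 0.00444), and Smad3 (0.45, adjusted p = 0.0200), along with 10.8% of all genes.

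**Figure D3:**
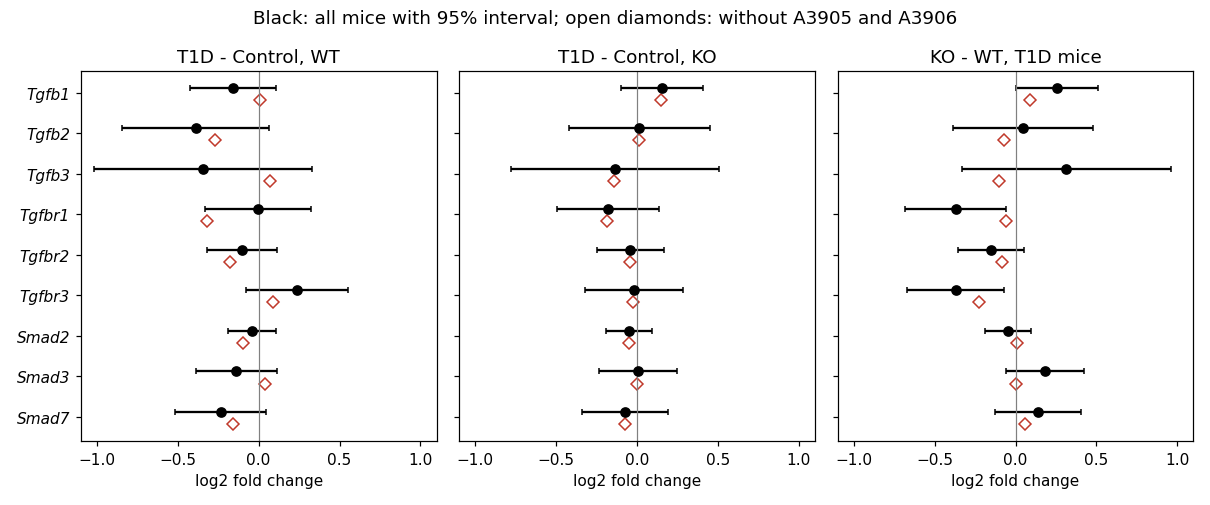
Log2 fold-change of each gene in 3 comparisons, with black points and 95% intervals from all mice and open diamonds for the values without A3905 and A3906. The diamonds move across 0 for Tgfb1, Tgfb3, and Smad3 in WT mice. A3905 and A3906 are not in the KO groups, so the KO diamonds could differ from the points only through the shared fit.

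The bone cell markers were set beside these genes in the 21 mice other than A3905 and A3906, as a description. Marker sums differed among these mice, with 35328 to 77594 CPM for osteoblast markers. Each gene and marker sum came from the same library, and the part of tissue composition was not tested. Tgfbr1 followed the osteoclast marker sum (Pearson r = 0.82, Spearman rho = 0.86), while its relation to the osteoblast sum was weaker (r = 0.19, rho = 0.25). It ran opposite to the erythroid sum (r = -0.64, rho = -0.69). Tgfb3 followed the osteoblast sum (r = 0.63, rho = 0.68) and the osteoclast sum (r = 0.51, rho = 0.60). Similar values were found for Tgfbr2 (r = 0.59 and 0.68, rho = 0.60 and 0.66) and Tgfb2 (r = 0.54 and 0.51, rho = 0.52 and 0.48), and Smad7 had r = 0.47 and 0.55 (rho = 0.38 and 0.50). Tgfb1 showed little relation to either, with r = 0.0034 for osteoblast and r = -0.012 for osteoclast markers, and the same held for Smad3 and osteoblast markers (r = 0.15, rho = 0.16). These values came from 27 gene and marker pairs, chosen after the data were seen. Groups and ID series were pooled, and their part in these relations was not tested. The A17 mice A1764, A1787, and A1758 of WT T1D were below every WT Control mouse in both Tgfbr1 and the osteoclast sum.

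**Figure D4:**
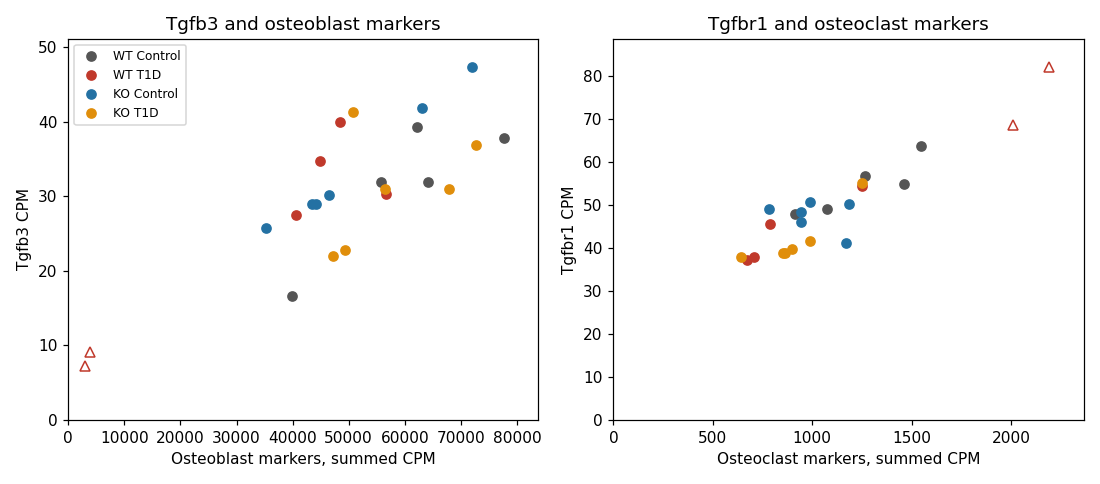
CPM of Tgfb3 against summed osteoblast markers and CPM of Tgfbr1 against summed osteoclast markers, with 1 point per mouse and open triangles for A3905 and A3906. Tgfbr1 rises along with osteoclast markers among the other 21 mice, and the triangles lie at the low end for Tgfb3 and the high end for Tgfbr1.

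The genes with the most similar pattern over the 23 mice, by Pearson r of log2 (CPM + 0.5) among 13306 genes, are given as a description. Tgfb3 was nearest to Kcnk2 (r = 0.95, and 0.81 over the 21 mice), C1qtnf6 (0.95 and 0.84), and Npnt (0.95 and 0.83). Tgfbr1 was nearest to Gpr137b (0.94 and 0.90), Slc37a2 (0.93 and 0.87), and Slc9b2 (0.92 and 0.85). Smad3 was nearest to Smad9 (0.92 and 0.77), Psd3 (0.87 and 0.54), and Nbl1 (0.87 and 0.54), so the last 2 relations were weaker without the pair. For the other 6 genes, the highest r ranged from 0.75 (Smad2 with Ssbp1) to 0.89 (Tgfb1 with Gas2l1). Between members, Tgfb3 and Smad3 had r = 0.73 over 23 mice but 0.16 over 21, whereas Tgfbr1 and Tgfbr2 had 0.64 and 0.61.

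A wider list of 52 TGF-beta genes, of which 51 were tested, was examined by role. In WT mice, 37 of 51 had a lower fitted level in T1D (51.9% of all genes did), with a median log2 fold-change of -0.18 against -0.011 over all genes. Cell markers moved in the same comparison, with lower fitted levels of all 6 osteoblast markers (median log2 fold-change -0.77, 1 called) and all 4 tested chondrocyte markers (-1.37, 0 called). All 6 erythroid markers (0.68, 4 called) and all 4 tested adipocyte markers (1.13, 1 called) had higher fitted levels. Their part in the list's values was not tested. The 1 gene of 51 past the threshold, which 2.33% of all genes passed, was Cd109, a membrane protein that binds TGF-beta and limits its signaling, which fell by 0.69 on the log2 scale (SE 0.170, edgeR adjusted p = 0.0451). It reached 57.2 and 89.2 to 101 CPM in WT Control and 39.3 to 72.5 CPM in WT T1D, where 5 of 6 mice were below every Control mouse. Without A3905 and A3906, the value was -0.63 (edgeR adjusted p = 0.288), and 0 of the 51 and 0% of all genes were called. The call was also lost on leaving out any 1 of 14 mice, A3905 and A3906 among them. In those 14 fits, 0% to 0.655% of all genes were called, against 2.33% with all mice. Of the 51, 15 had an unadjusted p under 0.05 in edgeR, 12 of them lower, where 22.2% of all genes had such a p and 11.2% had it with a lower level. The median of the 51 without the pair was -0.087.

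Latent complex and activation genes had the lowest median of the 5 roles, with a log2 fold-change of -0.46 in WT mice, 13 of 14 lower, and none called. Fbn1, the microfibril protein that anchors latent TGF-beta, had a log2 fold-change of -0.48 (edgeR adjusted p = 0.0900), Ltbp1, which binds latent ligand to matrix, -0.48 (0.134), and Ltbp4 -0.47 (0.171). Without A3905 and A3906 these were -0.31, -0.20, and -0.28.

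Of 9 other receptors and partners, 8 were lower, including Dab2, an adaptor that links receptors to SMADs, at -0.55 (edgeR adjusted p = 0.0843) and the type I receptor Acvr1 at -0.48 (0.102). Of 5 other SMADs, 4 were lower, with Smad5 at -0.32 (0.108), Smad1 at -0.20 (0.271), and the inhibitor Smad6 at -0.54 (0.285). Of 11 regulators, 4 were higher, including Usp15, a deubiquitinase, at 0.24 (0.131), the phosphatase Ppm1a at 0.18 (0.147), and Trim33 at 0.17 (0.182). Of 12 target genes, 7 were higher, with Klf10 at 0.21 (0.248), and Timp1, an inhibitor of matrix metalloproteinases, at -0.52 (0.115) and Adam12 at -0.83 (0.124). Without A3905 and A3906, the values were -0.28 for Dab2, -0.27 for Acvr1, -0.16 for Smad5, -0.087 for Smad1, and -0.17 for Smad6. They were 0.13 for Usp15, 0.082 for Ppm1a, 0.14 for Trim33, 0.084 for Klf10, -0.34 for Timp1, and -0.41 for Adam12.

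In KO mice, the median of the 51 was 0.0087 and 0 were called. The interaction had a median of 0.21, above 0 in 36 of 51, and 0 were called, with 7 at an unadjusted p under 0.05 in edgeR (10.2% of all genes) and 0 called by DESeq2. The median interaction was 0.12 without A3905 and A3906. Cd109 had a log2 fold-change of -0.029 in KO mice. Between genotypes, edgeR called 0 of the 51 in Control and in T1D mice, with 5 and 10 at an unadjusted p under 0.05 (4.8% and 17.1% of all genes). DESeq2 called 1 in T1D mice, where it called 1.66% of all genes. This was the target gene Ctgf, lower in KO mice (log2 fold-change -1.03, DESeq2 adjusted p = 0.00304). In CPM, 5 WT T1D mice lay above every KO T1D mouse, and the ranges overlapped. edgeR called 0 of the 51 in this comparison both with all mice and without A3905 and A3906 (0.0905% and 0.0279% of all genes). DESeq2 was not run without this pair. Ctgf was called by edgeR without A1787, without A1758, and among A36 to A39 mice. In those fits, 0.314%, 0.363%, and 10.8% of all genes were called.

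**Figure D5:**
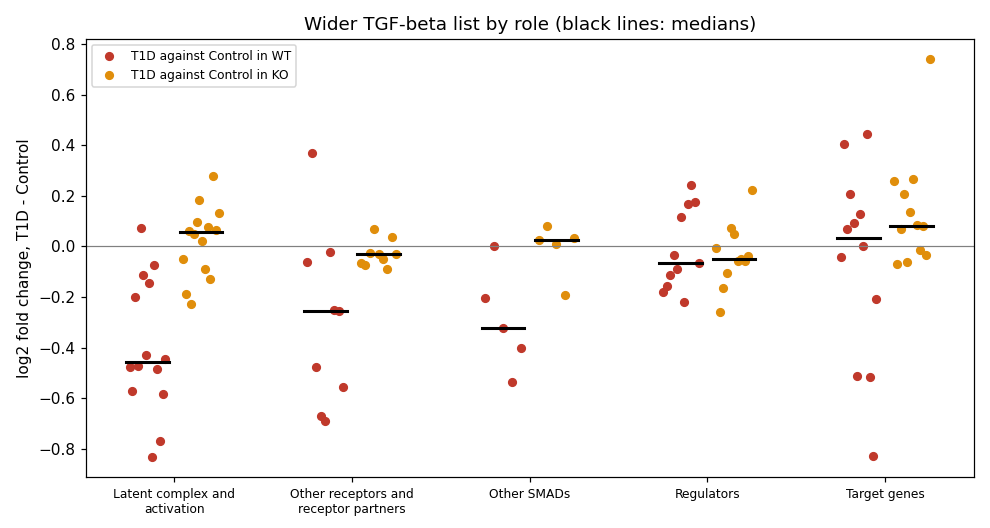
Log2 fold-change with T1D of the 51 wider-list genes in WT and KO mice by role, with 1 point per gene and black lines for medians. The WT median of latent complex genes is -0.46 and the KO median is 0.055.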

How the data were processed

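RNA-Seq values were available for 23 mice, 1 library each, grouped by library label. The authors deposited 2 tables made by their sequencing provider. One held RSEM expected counts, which were whole numbers without scaling, and the deposited TPM values were in the other. Per the labels, reads came from an oligo dT library with dUTP strand marking, and the submitters' processing notes name HISAT, Bowtie2, and GRCm38.p6. The tools were edgeR 4.0.16, DESeq2 1.42.0, and limma 3.58.1 under R 4.3.3, and figures were drawn with matplotlib. Genes that reached 10 counts in 5 or more mice entered edgeR's quasi-likelihood test after TMM scaling, in a model with terms for genotype, T1D, and the interaction, and p values were adjusted over all 14364 genes with the Benjamini-Hochberg method. Intervals came from this fit. The procedure was tested on simulated counts. These held no mice that stand apart as A3905 and A3906 do and no ID series, so the test does not cover those features. Members and lists were chosen with earlier results of these data known. Besides the 9 genes, the text names the 3 genes of each role of the wider list with the lowest unadjusted p for T1D in WT mice, list genes past the threshold, and the 3 nearest genes by pattern, of which the first is given for some members. Promoters were searched for 4 motifs, and TATAAA was chosen after the sequences had been read. Alternatives covered the test, normalization, filter, measure, pseudocount, p threshold, and the mice used. Mice did not share IDs between groups. Nothing in the labels says whether mice shared a cage or litter.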

Additional observations from a re-analysis of the deposited data

Results flagged for a closer look

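Of 96 gene-by-group checks for a mouse far from the rest of its group, over 24 genes, 4 stood out, and chance flags about 1 in 20 groups. WT Control mouse A1757 had 5.86 CPM of Tgfb2 against 12.5 to 13.8 CPM in the other 4 mice. The same mouse had 57.2 CPM of Cd109 against 89.2 to 101 CPM. KO T1D mouse A3683 had 55.0 CPM of Tgfbr1 against 38.0 to 41.6 CPM in the other 5 mice. WT Control mouse A3907 had 18.9 CPM of Smad7 against 11.2 to 13.2 CPM.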

How the results depend on the processing

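No paired analysis was possible because no mouse ID was shared between groups. With T1D in WT mice, the number of the 9 genes called was 0 with edgeR, where 2.33% of all genes were called. It was 6 with limma on log2 (TPM + 1) (36% of all genes) and 5 on log2 (TPM + 0.1) (34.9%). Among A36 to A39 mice it was 1 (15.5%), and for KO against WT in T1D mice it was 3 in that subset (10.8%). The count of the wider list in WT mice was 1 with edgeR (2.33% of all genes) and 3 with DESeq2 (6.98%). It was 0 without a filter on low counts (0.489%) and 29 and 28 with limma on both TPM scales (36% and 34.9%). It was 19 among A36 to A39 mice (15.5%), 0 without A3905 and A3906 (0%), and 3 at an adjusted p under 0.1. Leaving out each mouse in turn gave 0 to 5, with the highest count without A3909, where 8.8% of all genes were called. The count was 0 without A3767, A3903, A3904, A3907, A1787, A3905, A3906, A3679, A3680, A3670, A3673, A3681, A3675, or A3676. In those fits, 0% to 0.655% of all genes were called. The log2 fold-changes given next had the opposite sign to the value from all mice with edgeR, and none of them was called in either. Without A3905 and A3906, with T1D in WT mice, they were 0.0082 for Tgfb1, 0.069 for Tgfb3, and 0.039 for Smad3. For the interaction they were -0.21 for Tgfb3, 0.13 for Tgfbr1, 0.047 for Smad2, and -0.036 for Smad3, and for KO against WT in T1D mice they were -0.074 for Tgfb2, -0.10 for Tgfb3, and 0.0077 for Smad2. Among A36 to A39 mice, they were 0.30 for Tgfbr1 in WT mice, -0.017 for the Tgfbr2 interaction, -0.051 for Tgfb3 in KO against WT Control mice, and -0.048 for Tgfb2 in KO against WT T1D mice. Tgfbr1 in WT mice was 0.0011 with DESeq2 and with its size factors, 5.9e-04 without hemoglobin genes, and 3.4e-06 without a filter. On log2 (TPM + 1) and log2 (TPM + 0.1), Tgfb2 in KO mice was -0.038 and -0.053, Smad3 in KO mice -0.040 and -0.041, Tgfbr3 in WT mice -0.066 and -0.076, and Smad3 in KO against WT Control mice -0.016 and -0.017. On the same scales, the interaction was 0.11 and 0.12 for Tgfbr1, 0.027 and 0.033 for Tgfbr3, and 0.21 and 0.24 for Smad2. KO against WT in T1D mice was 0.065 and 0.067 for Tgfbr2 and 0.14 and 0.16 for Smad2. The median gene was itself shifted on these scales, by 0.20 and 0.24 for the interaction and by 0.17 and 0.21 for KO against WT in T1D mice. Its shift was -0.24 and -0.29 in WT mice, -0.037 and -0.044 in KO mice, and -0.033 and -0.039 in KO against WT Control mice. Leaving out 1 mouse at a time, Tgfb2 ran from -0.14 to 0.068 in KO mice and reached -0.12 in KO against WT T1D mice, and Tgfb3 ran from -0.058 to 0.19 in KO against WT Control mice. Tgfbr1 ran from -0.15 to 0.095 in WT mice. Tgfbr2 ran from -0.093 to 0.0062 in KO mice, with its interaction down to -0.020, and Tgfbr3 from -0.094 to 0.058 in KO mice. Smad2 ran from -0.084 to 0.0079 in WT mice, from -0.055 to 0.037 for the interaction, and from -0.082 to 0.0096 in KO against WT Control mice. Smad3 ran from -0.051 to 0.048 in KO mice and from -0.0059 to 0.081 in KO against WT Control mice, and Smad7 from -0.084 to 0.13 in the latter. The cause was not tested. Tgfb2 and Smad7, with 107 to 343 counts per mouse, had the least depth.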
